A study of Prunus persica and Prunus armeniaca with 129 samples.

Results

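The comparison described here is the passage from 100 to 600 chill hours in floral buds of the low chill peach (Prunus persica) genotypes A209 and A340. Its members are the 16 libraries labelled with these genotypes and chill hours, 4 replicates for each genotype and time point, out of 129 libraries in the series and 69 in peach. Low chill trees need little exposure to cold before their buds can grow. Both genotypes are F2 progeny of the cross between Fla.92-2C and Contender, grown at the same site, and the replicates of a genotype are clones of it, so that p-values measure the spread between clonal trees. The 100 and 600 chill hour buds were collected on 1 date each, late in autumn and in the middle of the following winter, and chill hours, calendar date and any effect of processing by date cannot be told apart. For contrast, 14 libraries of the high chill genotypes A318 and A323 from the same cross and dates were used, and, for levels alone, the low chill libraries at 0 chill hours and pre-bloom. The study treats low chill buds at 600 chill hours as ecodormant, a state taken from chill hours and transcriptome clustering and not assayed on the buds.

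Buds of temperate fruit trees pass the winter in endodormancy, in which growth is blocked from within, and, after enough chilling, in ecodormancy, in which only the cold holds them back. The DORMANCY-ASSOCIATED MADS-box (DAM) genes are SVP-like transcription factors whose transcripts accumulate in dormant Prunus buds and decline with chilling. Inside the bud, flower development continues in small steps, and in the anther the tapetum, a nurse layer, makes the sporopollenin wall of the pollen. Roles given below for other genes are known from Arabidopsis, and the peach genes carry the name of their best Arabidopsis match as listed by the study.

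The 16 libraries held 3007883 to 26858662 counts on 26872 genes, with 3007883 to 22752322 at 100 and 5268287 to 26858662 at 600 chill hours. Between 20198 and 24947 genes had at least 1 count, and the 10 most abundant genes took 3.54% to 9.79% of the counts. A level of 3 counts over all 8 libraries of a time point, the floor used here, was 0.0245 CPM at 100 and 0.0201 CPM at 600 chill hours and covers counting error only. Levels are counts scaled to the library total by the TMM method (CPM) and are not corrected for gene length, so that they compare libraries and not genes. Of the 8 floral markers, the summed level was 345 to 597 CPM at 100 and 252 to 390 CPM at 600 chill hours, while INO, a regulator of the outer ovule integument, had a median of 0 at both. PC1 of the 16 libraries (54.4% of the variance) separated the time points. PC2 (9.33%) set replicate 1 of A209 at 600 chill hours apart with a score of 114. This library was also the shallowest at 600 chill hours, with 5268287 counts, and values without it are given beside the cell wall, DAM and cell cycle genes. Of all list members, 7 changed their call without it.

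In the PCA with the high chill genotypes, the low chill buds at 600 chill hours were the separate set. Along PC1 (39.1% of the variance) their 8 libraries lay between 118 and 148, whereas the 22 others, high chill buds at 600 chill hours included, lay between -80 and -18. The high chill libraries at 600 chill hours separated from those at 100 chill hours along PC2 (13.6%).

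**Figure D1:**
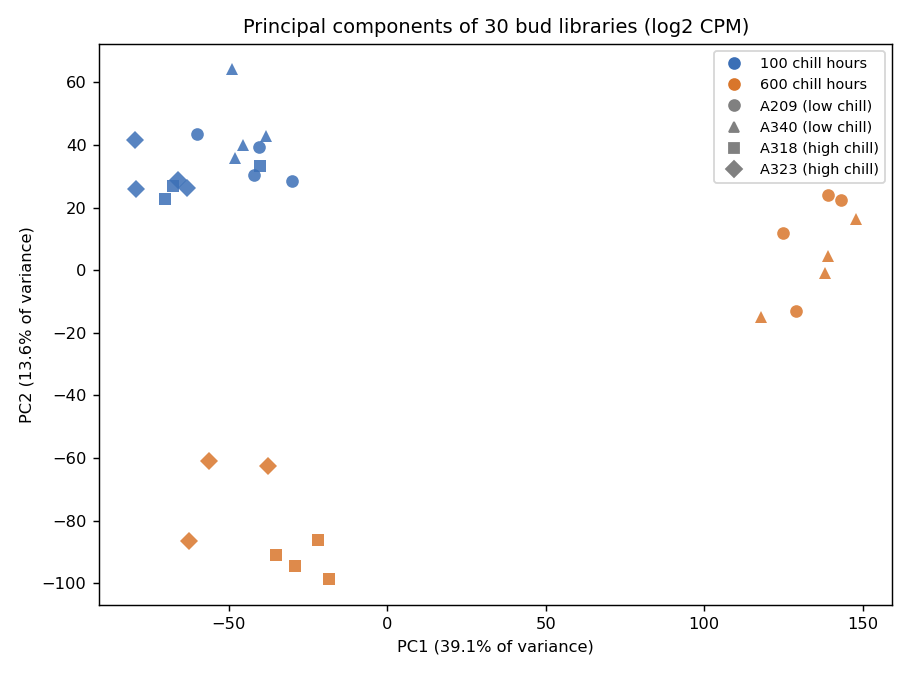
Scores of 30 bud libraries on the first and second principal components of log2 CPM, in arbitrary units, coloured by chill hours and shaped by genotype. The 8 low chill libraries at 600 chill hours lie at 118 to 148 on PC1 and all others at -80 to -18.

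Of 20099 genes tested, 5095 rose (25.3%) and 4163 fell (20.7%) from 100 to 600 chill hours in a model with genotype as an additive factor (edgeR quasi-likelihood test, adjusted p below 0.05). A gene was counted as differentially expressed (DEG) when its log2 fold change also exceeded 1 in size, which is a 2-fold change, and this left 3098 DEGs higher (15.4%) and 1723 lower (8.57%) at 600 chill hours. The larger changes were mostly increases: 357 genes were over 32-fold higher and 15 were over 32-fold lower, against 89 and 5 in the high chill genotypes. The 8 libraries at 600 chill hours lay all above the 8 at 100 chill hours in 1713 genes (8.52%) and all below in 1444 (7.18%). The median log2 step over all genes was 0.04. Fitted alone, A209 had 2891 higher and 1662 lower DEGs and A340 had 2834 and 1822. The genotypes shared 1868 higher DEGs, 64.6% of those of A209 and 65.9% of those of A340, and 1039 lower DEGs, 62.5% and 57%. Only 11 genes were higher DEGs in A209 and lower DEGs in A340, and 5 the reverse.

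**Figure D2:**
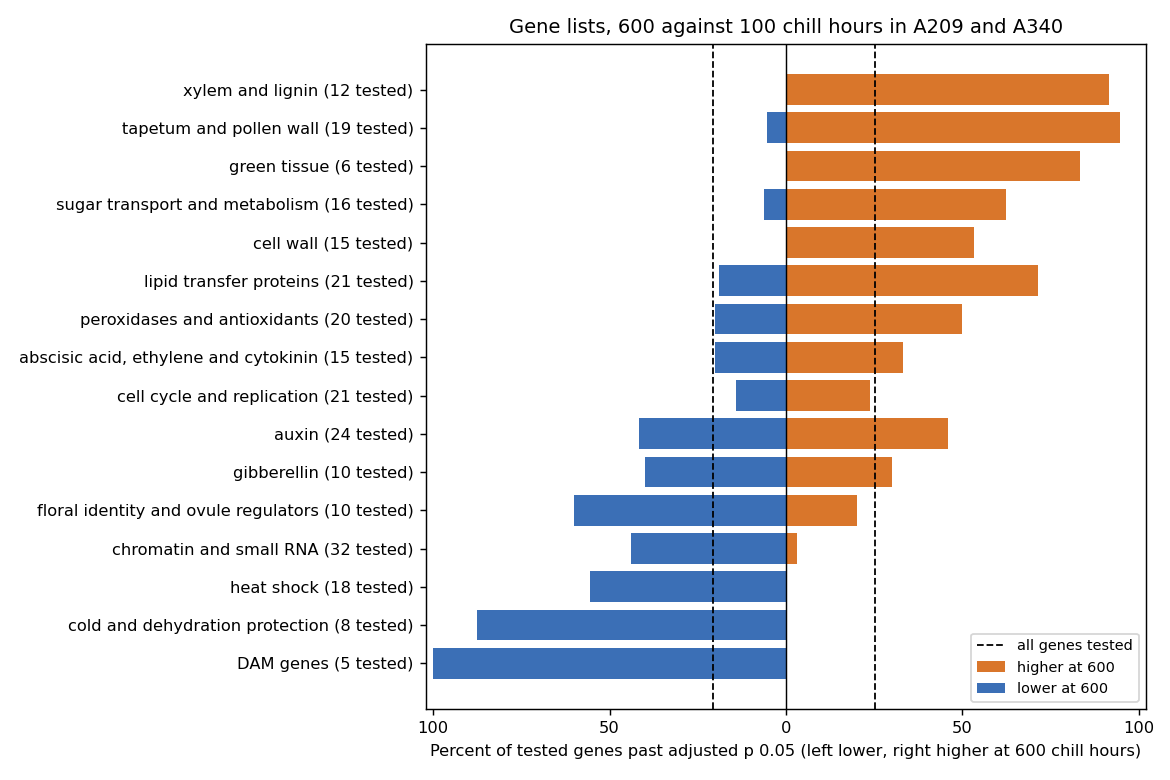
Percent of the tested genes in each of 16 lists that rose (right, orange) or fell (left, blue) at adjusted p below 0.05, with the shares of all genes tested, 25.3% and 20.7%, as dashed lines. Tapetum, xylem and lipid transfer genes lie far to the right, and DAM, cold protection and heat shock genes to the left. The lists were drawn from annotations and text of the study, so their shares are not independent of these data.

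The largest group change was that of genes for the tapetum and the pollen wall. Of 19 genes, 18 rose (94.7%) and 1 fell (5.26%), against 25.3% and 20.7% of all genes tested. The median log2 step was 7.29 against 0.04 over all genes. The summed level went from 15.8 to 83 CPM at 100 chill hours to between 1201 and 8831 CPM at 600 chill hours. In bulk buds, more cells of a type and more RNA per cell cannot be told apart. Several of these genes were taken from tables the study made on these samples, so their direction is not independent evidence. AMS and MYB80 are transcription factors of the tapetum, and 2 neighbouring AMS-like genes were measured. AMS-like b (Prupe.8G166900) was at 0.462, 1.54, 1.15 and 0.548 CPM in A209 replicates 1 to 4 at 100 chill hours, and at 59.3, 29.2, 107 and 24 CPM at 600 chill hours. In A340 it was at 1.22, 0.426, 0.801 and 0.337 CPM and then at 73.8, 119, 62.6 and 91.2 CPM. All 8 later libraries were above all 8 earlier ones, with a log2 step of 6.61 (SE 0.41, adjusted p = 9.07e-10). AMS-like a (Prupe.8G166800), at lower counts, showed a log2 step of 6.63 (SE 0.55), and MYB80 (Prupe.6G032800) one of 5.25 (SE 0.69), with a lowest value of 0.8 CPM at 600 chill hours in A340 replicate 1.

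The enzymes that make sporopollenin precursors rose in most but not all libraries. LAP6 (Prupe.2G122600), a polyketide synthase, was at 1.85, 6.95, 7.21 and 0.647 CPM in A209 at 100 chill hours and at 1900, 71.6, 828 and 1708 CPM at 600 chill hours. In A340 it was at 14, 2.74, 0.667 and 1.6 CPM and then at 0.88, 904, 1177 and 969 CPM. A340 replicate 1 thus showed no LAP6 increase at 600 chill hours, and A209 replicate 2 a smaller one. ACOS5 (Prupe.1G224800), the acyl-CoA synthetase of the same pathway, divided the libraries in the same way, with 3.32 CPM in A340 replicate 1 and 49.5 CPM in A209 replicate 2 against 414 to 645 CPM in the other 6. LAP5 (Prupe.8G159600) was at 204, 3.55, 144 and 320 CPM in A209 and at 6.2, 404, 196 and 383 CPM in A340 at 600 chill hours, lowest in the same pair of libraries. The steps of LAP6, ACOS5 and LAP5 were 7.78 (SE 1.11, adjusted p = 1.59e-05), 7.67 (SE 0.92) and 7.32 (SE 0.97). Without A340 replicate 1 at 600 chill hours the LAP6 step was 8 (adjusted p = 3.81e-07).

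SHT (Prupe.1G079800), an acyltransferase that makes the spermidine conjugates of the pollen coat, was even across the same libraries. It was at 1.85, 4.24, 6.69 and 0.697 CPM in A209 and 8.33, 2.62, 1.27 and 1.77 CPM in A340 at 100 chill hours. At 600 chill hours it was at 703, 523, 793 and 477 CPM in A209 and 476, 550, 816 and 713 CPM in A340, with a log2 step of 7.58 (SE 0.49, adjusted p = 1.95e-09). A340 replicate 1 held the lowest SHT value, 476 CPM, next to 477 CPM in A209 replicate 4, and both it and A209 replicate 2 were within the range of the others for AMS-like b while low for LAP6 and ACOS5. The remaining wall genes included TA1 (7.99), the fatty acid hydroxylases CYP703A2 (7.79) and CYP704B1 (7.29), LAP3 (7.38), DRL1 (7.38), the fatty acyl reductase MS2 (7.26) and the polygalacturonase QRT3 (6.76), all given as log2 steps. Ole e 1 c (Prupe.4G004300), a pollen allergen-like gene, was the one that fell, by 1.72 on the log2 scale, and a further MS2-like gene (Prupe.6G126800) fell by 3. Counts at 100 chill hours, although small, were highest in A209 replicates 2 and 3 and A340 replicate 1, whose sums over the list were 54.8, 58.7 and 83 CPM against 15.8 to 23.8 CPM in the other 5.

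**Figure D3:**
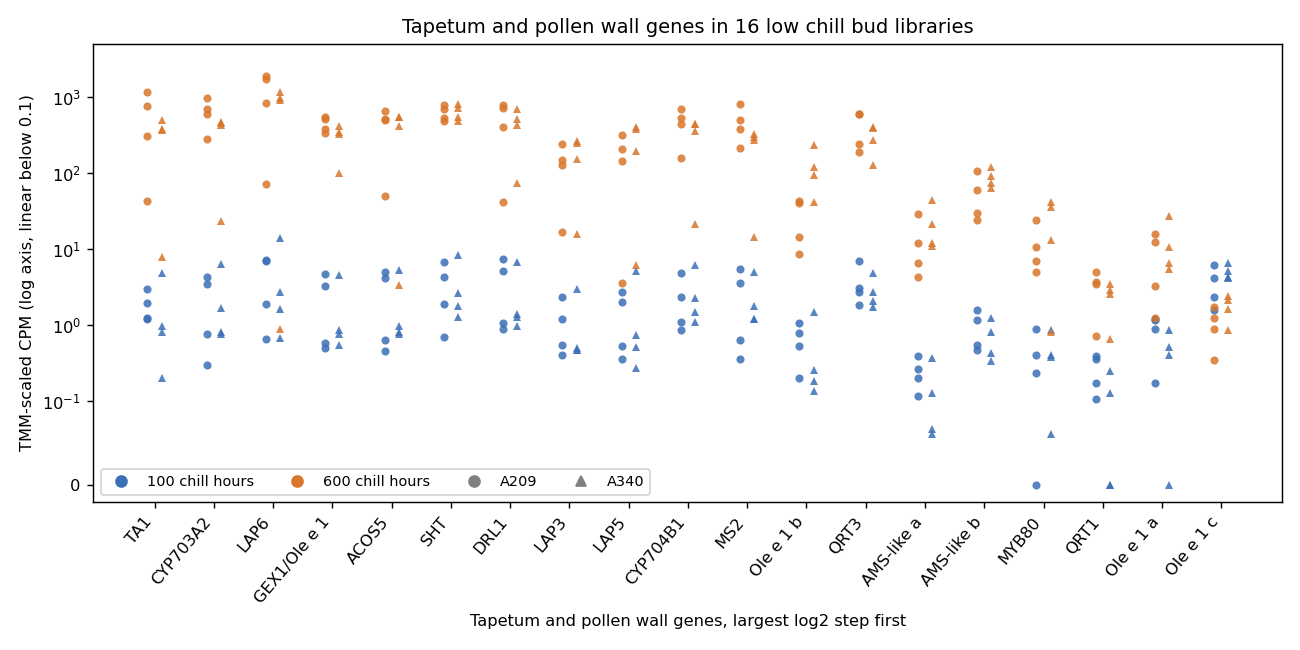
TMM-scaled CPM of 19 tapetum and pollen wall genes in each of 16 libraries, on a log axis that is linear below 0.1, coloured by chill hours with A209 as circles and A340 as triangles. In 14 of 19 genes every orange 600 chill hour point lies above every blue one. The groups overlap for MYB80, ACOS5 and LAP6 through a low A340 library (LAP6 at 0.88 CPM), for LAP5 through an A209 library at 3.55 CPM, and for Ole e 1 c, which fell.

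Lipid transfer proteins, small secreted proteins of which many are specific to anthers, moved with the wall genes. Of 21 tested, 15 rose (71.4%, against 25.3% of all genes tested) and 4 fell (19%, near the 20.7% of all genes tested). The median log2 step was 7.16. This list, like the others, was drawn from annotations and text of the study, so its direction is not independent evidence. LTP5 (Prupe.5G119200) was at 7.74 to 43.6 CPM at 100 chill hours, with a median of 20.5 CPM, and at 1294 to 3429 CPM at 600 chill hours, with a median of 2378 CPM. Its groups were far apart, and the log2 step was 6.66 (SE 0.44, adjusted p = 2.38e-09). The 4 genes that fell were all present in the earlier buds, among them LTP1 (Prupe.6G293000), which fell from a median of 3077 to 979 CPM. The annotated genes with the largest increases among those with separate groups and at least 10 CPM were largely of the same kind. They were a cupredoxin (Prupe.8G240400, 8.11), TA1, the lipid transfer proteins Prupe.4G013200 (7.93) and Prupe.2G291200 (7.92), CYP703A2, an Ole e 1 family gene (Prupe.1G133700, 7.77), a CYP98A3 match of the phenylpropanoid pathway (Prupe.5G191300, 7.77), a fasciclin-like arabinogalactan protein (Prupe.4G006800, 7.72), a thaumatin-like protein (Prupe.1G383700, 7.71) and a self-incompatibility S1 family gene (Prupe.1G060000, 7.7).

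Sugar transport and wall loosening genes rose as well. Of 16 sugar genes 10 rose (62.5%) and 1 fell (6.25%), against 25.3% and 20.7% of all genes tested. Their median log2 step was 2.65. The hexose importer STP1 a (Prupe.5G083900) was at 0.0577 to 2.32 CPM at 100 chill hours and at 30.7 to 118 CPM at 600 chill hours, a log2 step of 7.3 (SE 0.48). The sugar exporter SWEET d (Prupe.8G017500) was at 0.289, 1.93, 1.62 and 0.348 CPM in A209 and 1.22, 0.73, 0.667 and 0.168 CPM in A340 at 100 chill hours. At 600 chill hours it was at 85.5, 44.3, 123 and 36.8 CPM and at 253, 127, 116 and 176 CPM, with a log2 step of 7.23 (SE 0.5, adjusted p = 3.59e-09). Its later values were thus above all earlier ones. The beta-galactosidases BGAL7 and BGAL1 rose by 5.81 and 5.64, and sucrose synthase SUS3 by 1.02. The starch-degrading AMY3 was the sugar gene that fell, by 0.5 (adjusted p = 0.0286), and its call was lost in 7 of 16 fits that left out 1 library (highest adjusted p = 0.0689). The vacuolar sucrose transporter SUC4 stayed between 23.5 and 47.3 CPM and did not pass the test (0.04, adjusted p = 0.835). Among 15 cell wall genes 8 rose (53.3%, against 25.3% of all genes tested) and the other 7 did not pass the test. Without A209 replicate 1 at 600 chill hours a further pair of them fell, the expansin EXPA4 a (-0.85, adjusted p = 0.0271, against -0.42 with it) and PDCB3 b, a callose-binding protein of plasmodesmata (-0.98, adjusted p = 0.0341, against -0.3). The xyloglucan endotransglucosylases XTH2 a and b, which remodel hemicellulose, had steps of 7.48 and 7.41, and the expansins EXPA15 and EXPA4 b, which loosen walls, of 1.46 and 1.1.

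Of 20 peroxidases and other antioxidant genes, 10 rose (50%) and 4 fell (20%), against 25.3% and 20.7% of all genes tested. The falling share was thus near that of all genes. The median log2 step was 2.56. Peroxidase g (Prupe.1G374000) went from a median of 2.25 to 466 CPM (log2 step 7.05), peroxidase f (Prupe.1G114700) from 0.562 to 73.1 CPM (6.83), GSTU10 from 0.17 to 27.4 CPM (7.37) and GSTF13, a glutathione transferase, from 0.629 to 65.6 CPM (6.88). The manganese superoxide dismutase MSD1 b fell by 1.59, and its copy MSD1 a had a step of -0.12 (adjusted p = 0.528). Of 8 oxidoreductases and other genes that the study names, 6 rose (75%) and 2 fell (25%). The latter were the MS2-like gene above and OFP2, of a family of transcriptional repressors, at -1.53.

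Xylem and lignin genes rose in 11 of 12 cases (91.7%, against 25.3% of all genes tested), with a median log2 step of 2.09. In A209 alone 7 rose, with a median of 1.6, and in A340 alone 10 rose, with a median of 2.88. The phenylpropanoid entry enzymes PAL1 and 4CL2 rose by 1.92 and 1.15, with separate groups of 35.3 to 55.7 CPM and 129 to 223 CPM for PAL1. CESA8 (Prupe.4G065700), a cellulose synthase of secondary walls, was at 5.25, 7.33, 6.9 and 4.38 CPM in A209 and 1.71, 1.64, 2.67 and 2.48 CPM in A340 at 100 chill hours. It was at 29.3, 6.4, 20.9 and 16.4 CPM and at 48.8, 26.9, 25.6 and 23.3 CPM at 600 chill hours, a step of 2.73 (SE 0.39, adjusted p = 1.63e-05). A209 replicate 2 alone stayed within the range at 100 chill hours. Photosynthesis and plastid genes rose in 5 of 6 cases (83.3%, against 25.3%) with a median of 1.01, among them LHCB1.3, a light-harvesting protein, at 1.92. As summed levels, the 7 xylem markers went from a median of 23.5 to 155 CPM and the 3 green tissue markers from 32.7 to 120 CPM, while the meristem gene STM fell from 47.8 to 29.5 CPM. The part of such shifts in tissue makeup in the other changes was not tested.

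The DAM genes fell. Of the 6 DAM genes, 5 passed the filter on low counts and all 5 were lower at 600 chill hours. Of all genes tested, 20.7% fell. The DAM median log2 step was -2.27, and DAM2 (ppb017585m) had at most 1.21 CPM. The 6 genes are tandem copies, and how reads shared between copies were counted is not given in the sources used here, so the split among them is uncertain. DAM6 (ppa010714m) was at 237, 180, 211 and 208 CPM in A209 and 270, 245, 232 and 254 CPM in A340 at 100 chill hours. At 600 chill hours it was at 76.5, 14.5, 5.41 and 7.71 CPM in A209 and 6.68, 13.4, 11.2 and 8.97 CPM in A340. The groups did not overlap, and the step was -3.85 (SE 0.48, adjusted p = 3.38e-06). A209 replicate 1 held the highest later value, and without it the step was -4.58 (adjusted p = 9.91e-11). DESeq2's Wald test gave DAM6 and DAM5 no adjusted p (log2 steps -3.81 and -2.79) and called the other 3 DAM genes lower.

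DAM5 (ppa010822m) was at 30.9 to 39.7 CPM in the 8 earlier libraries. At 600 chill hours it was at 31, 7.73, 1.31 and 2.46 CPM in A209 and 1.8, 3.49, 3.15 and 1.63 CPM in A340. The A209 replicate 1 value was within the earlier range, and the step was -2.86 (SE 0.51, adjusted p = 1.63e-04) with this library and -3.58 (adjusted p = 3.08e-08) without it. DAM3 (ppa010758m) was at 65.6, 71.8, 52.8 and 61.9 CPM in A209 and 35.9, 51.5, 45.6 and 42.4 CPM in A340 at 100 chill hours, and at 15.5, 13.1, 5.81 and 14.4 CPM and 9.48, 12.5, 8.54 and 8.82 CPM at 600 chill hours. Its groups were separate, with a step of -2.27 (SE 0.18, adjusted p = 1.22e-08). DAM4 (ppa011123m) had the smallest step, -1.48 (SE 0.14, adjusted p = 1.42e-07), from 256 to 371 CPM at 100 to 78.6 to 153 CPM at 600 chill hours. DAM1 (ppa018667m) had a step of -1.69 (SE 0.31, adjusted p = 2.24e-04) and its groups overlapped. SVP (Prupe.8G069300), the related MADS-box gene outside the DAM cluster, fell by 1.25.

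Genes of cold and dehydration protection fell in 7 of 8 cases (87.5%, against 20.7% of all genes tested), with a median log2 step of -2.29. CAP160 (Prupe.2G294400), a cold-induced protein, was at 1561, 1451, 1702 and 1652 CPM in A209 and 1734, 1704, 1829 and 1787 CPM in A340 at 100 chill hours. At 600 chill hours it was at 146, 59.6, 58.1 and 59.6 CPM and at 48.3, 99.2, 56.8 and 57 CPM. The later values were all far below the earlier ones, with a step of -4.53 (SE 0.25, adjusted p = 2.81e-10). An LEA gene (Prupe.1G104900) fell from 1312 to 3312 CPM down to 65 to 313 CPM (-4.14, SE 0.34). COR47 (Prupe.7G161100), a dehydrin, was at 12424 to 22216 CPM, median 16133 CPM, at 100 chill hours and at 2495 to 4084 CPM, median 2905 CPM, at 600 chill hours (-2.41, SE 0.2, adjusted p = 1.86e-08). Galactinol synthase GolS2, which makes raffinose precursors, fell by 3.59 and the DREB-type regulator DREB2C a by 2.18, while GolS4 did not pass the test (-0.26, adjusted p = 0.489).

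Heat shock genes, which encode chaperones and their regulators, fell in 10 of 18 cases (55.6%, against 20.7% of all genes tested). The other 8 did not pass the test, and the median log2 step was -1.12. HSP90.1 had the largest step, -4.04 (SE 0.45), at low counts, followed by HSP20 d (-3.24), the heat shock factor HSFA2 (-2.45), HSP20 a (-2.42) and the plastid protein HSP21 (-2.26). HSP21 was at 18.9 CPM in A209 replicate 1 at 600 chill hours and at 3.05 to 7.11 CPM in the other 7 libraries, against 23.4 to 44.4 CPM at 100 chill hours. The constitutive factor HSFA1D had a step of -0.06 (adjusted p = 0.689).

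Hormone genes changed in mixed directions. Of 10 gibberellin genes 3 rose (30%) and 4 fell (40%), against 25.3% and 20.7% of all genes tested. Enzymes that inactivate gibberellin were among those that fell: GA2ox (Prupe.4G080700) was at 59.3 to 128 CPM at 100 and 1.71 to 13.3 CPM at 600 chill hours (-4.54, SE 0.33), and GA2OX8 a fell by 3.06. GA3OX1 (Prupe.1G467600), which makes the active hormone, was at 162 to 325 CPM at 100 chill hours and 15.7 to 54.6 CPM at 600 chill hours, and fell by 3.05 (SE 0.25, adjusted p = 2.06e-08). The gibberellin-regulated GASA c and d rose by 2.35 and 1.17, and GASA g fell by 2.15. ZEP (Prupe.2G004500), the match to zeaxanthin epoxidase of abscisic acid synthesis, was at 0 to 0.49 CPM at 100 chill hours and 14.6 to 55.3 CPM at 600 chill hours (6.78, SE 0.42, adjusted p = 9.74e-10). The stress-related factors MYB102 and MYB108 rose by 5.78 and 3.57, and ERF13 fell by 1.96. In all, 5 of 15 abscisic acid, ethylene and cytokinin genes rose (33.3%) and 3 fell (20%), shares near those of all genes tested, 25.3% and 20.7%. Auxin genes were divided, 11 rising (45.8%) and 10 falling (41.7%) of 24, against 25.3% and 20.7% of all genes tested. Rises included the influx carrier LAX2 a (5) and the SAUR growth genes f and b (6.1 and 5.96), and falls included efflux carrier a (-3.66), while the efflux carrier PIN3 rose by 1.81.

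Regulators of flower and meristem identity fell in 6 of 10 cases (60%) and rose in 2 (20%), against 20.7% and 25.3% of all genes tested. LFY (Prupe.5G140700), which starts floral identity, was at 127, 87.2, 78.3 and 74 CPM in A209 and 132, 269, 115 and 110 CPM in A340 at 100 chill hours. It was at 38.3, 9.51, 27.2 and 15.4 CPM and at 7.84, 26.6, 10.9 and 13.8 CPM at 600 chill hours, without overlap (-2.73, SE 0.36, adjusted p = 5.61e-06). CAL and AP1, early floral meristem genes, fell by 1.02 and 0.95. The stamen and carpel gene AG rose by 1.28 and the petal and stamen gene AP3 by 0.59. Chromatin and small RNA genes fell in 14 of 32 cases (43.8%) and rose in 1 (3.12%), mostly by less than 2-fold (median -0.26). Of all genes tested, 20.7% fell and 25.3% rose. HDT1, a plant-specific histone deacetylase, fell by 1.36 from 544 to 788 CPM to 134 to 327 CPM, DDM1, a remodeller that maintains DNA methylation, by 1.11 and AGO4 b, an effector of small RNA-directed methylation, by 1.93. Of 21 cell cycle genes 5 rose (23.8%) and 3 fell (14.3%), neither share above that of all genes tested. Their median step was 0.25. Without A209 replicate 1 at 600 chill hours 22 genes passed the filter, and the median over these was -0.1. The cyclin-dependent kinase inhibitor KRP7 rose by 2.44, the cyclins CYCD3 and CYCD3.2 fell by 0.69 and 0.9, and none of the 8 histone genes tested, including HTA7 and H2AXB, passed the test.

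Among genes annotated in the tables of the study and outside the lists, the steepest declines with separate groups and at least 10 CPM were those of UGT84A1 (Prupe.8G135700), a glucosyltransferase of phenolic acids, and ROXY2 (Prupe.4G083900), a glutaredoxin of early anther development. UGT84A1 was at 64.3 to 105 CPM, median 76.2 CPM, at 100 chill hours and at 0.68 to 3.15 CPM, median 1.18 CPM, at 600 chill hours (-6.02, SE 0.25, adjusted p = 5.32e-11). ROXY2 was at 13.9, 7.72, 9.2 and 5.03 CPM in A209 and 8.57, 34.6, 15.6 and 9.93 CPM in A340, and then at 0.171 to 0.608 CPM in all 8 later libraries (-5.05, SE 0.38, adjusted p = 7.40e-09). Next came a CCCH zinc finger gene (Prupe.7G216200, -4.41), a TauE/SafE family gene (Prupe.7G153300, -4.03), an O-methyltransferase (Prupe.3G127600, -3.98), the ERF-type ABR1 (Prupe.6G165700, -3.81), the desaturase FAD5 (Prupe.4G259800, -3.63) and a PLATZ factor (Prupe.4G115600, -3.35).

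The libraries at 0 chill hours and pre-bloom, 8 each, place both time points on a longer course, on a scale set over all 32 low chill libraries and with no test. Median LAP6 was at 13.3 CPM at 0, 2.27 CPM at 100, 905 CPM at 600 chill hours and 14.8 CPM at pre-bloom, and median SHT at 9.3, 2.21, 596 and 69.4 CPM. The SHT median at pre-bloom was thus above those at 0 and 100 chill hours. Of the 19 tapetum and pollen wall genes, 18 had their highest median at 600 chill hours, and Ole e 1 c had it at 0 chill hours. CAP160 followed the opposite course, with medians of 133, 1693, 57.7 and 255 CPM, and COR47 had medians of 5503, 15960, 2839 and 6169 CPM. Both were highest at 100 and lowest at 600 chill hours. DAM6 had medians of 303, 233, 9.83 and 60.5 CPM, DAM5 of 29.9, 35.7, 2.73 and 23 CPM, and DAM4 of 131, 317.7, 105.4 and 67.7 CPM. DAM6 and DAM5 medians were thus lowest at 600 chill hours and higher again at pre-bloom, whereas the DAM4 median was lowest at pre-bloom.

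**Figure D4:**
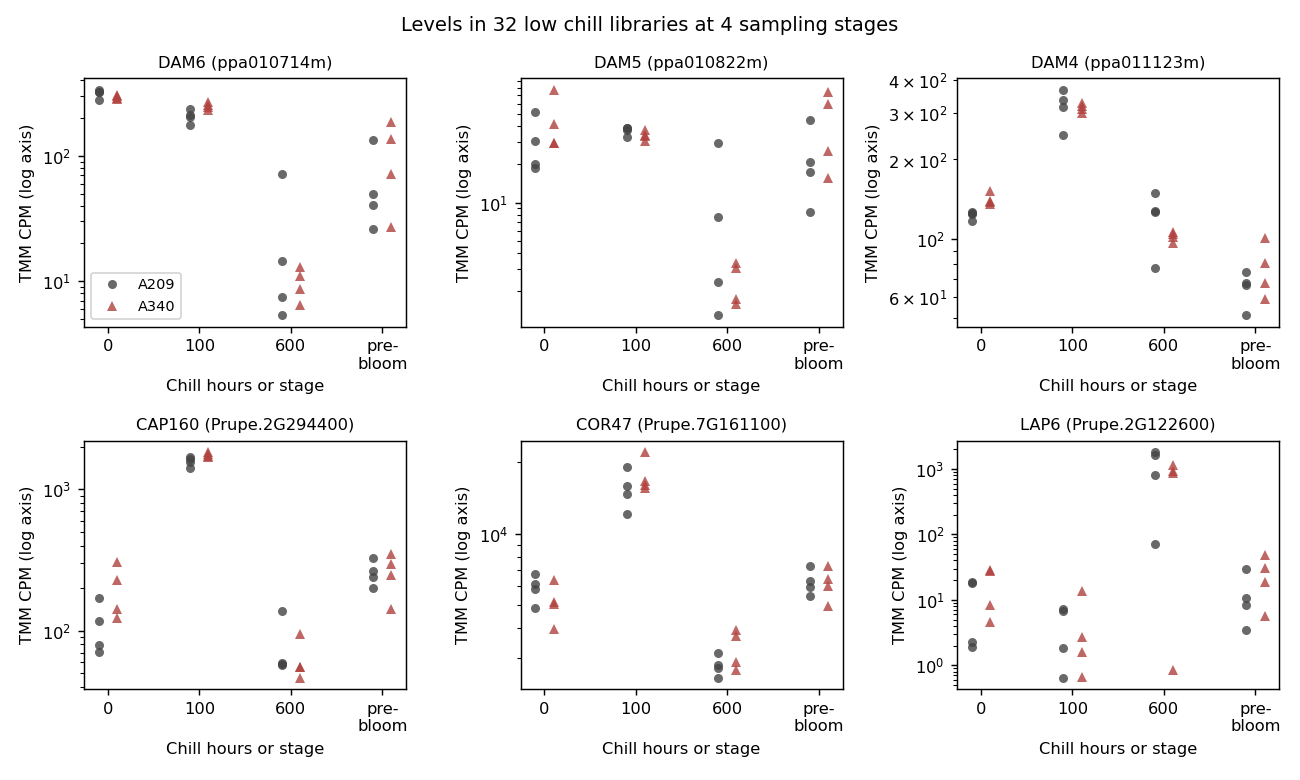
TMM CPM on log axes of 6 genes in each of 32 low chill libraries at 0, 100 and 600 chill hours and pre-bloom, A209 as grey circles and A340 as red triangles. The LAP6 median is highest at 600 chill hours, where 1 A340 library stays low, CAP160 and COR47 peak at 100, and DAM6 falls to a median of 9.83 CPM at 600 chill hours.

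The steps of A209 and A340 were compared by an interaction contrast. It called 97 genes whose step was higher in A209 (0.483% of genes tested) and 69 whose step was lower (0.343%), and at an unadjusted p below 0.05 the count was 3186. These counts rest on single libraries: they ranged from 20 to 521 and from 14 to 380 when 1 library was left out, with the highest count without A209 replicate 3 at 600 chill hours. DESeq2's Wald test called 437 and 328. Of the listed genes, 2 were called. HSP101 (Prupe.5G203700), a disaggregating chaperone, was at 55.3, 50.2, 54.7 and 62.6 CPM and then 42.1, 66.1, 36 and 41.6 CPM in A209. In A340 it was at 76.8, 65.1, 91.9 and 84.7 CPM and then 19.1, 18.7, 23.3 and 19.4 CPM. The A340 groups were thus separate and the A209 groups overlapped, with steps of -1.98 and -0.26 and a difference of 1.72 (SE 0.26, adjusted p = 0.00972). LAC4 b (Prupe.6G271500), a lignin laccase, was at 13.3, 15, 16.1 and 10.9 CPM and then 31, 7.55, 27 and 16.4 CPM in A209. In A340 it was at 2.94, 3.95, 3 and 2.99 CPM and then 64.1, 44.2, 37.8 and 25 CPM, and the steps of 0.56 and 3.72 differed by -3.16 (SE 0.5, adjusted p = 0.00972). A340 started lower, and its later values ran from 25 to 64.1 CPM against 7.55 to 31 CPM in A209. Both calls held in all 16 fits that left out 1 library, but with a replicate block HSP101 was no longer called (1.67, adjusted p = 0.0553). The 6 largest genotype differences, from 3.61 to 4.68, belonged to genes with no annotation at hand.

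The low chill step differed from the step of the high chill genotypes between the same dates in a fit of 30 libraries, with 3646 genes higher (17.4% of 21004 tested) and 3211 lower (15.3%). In the high chill genotypes themselves 3665 genes rose (17.4%) and 3218 fell (15.3%), with 1789 higher (8.52%) and 1375 lower (6.55%) DEGs between these dates. Of the low chill DEGs of this fit, 600 of 3193 higher ones (18.8%, and 33.5% of the high chill ones) and 619 of 1786 lower ones (34.7% and 45%) were DEGs in the same direction in the high chill genotypes. In the opposite direction were 139 (4.35%) and 71 (3.98%).

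The pollen wall genes were the list with the largest median difference between low and high chill (7.25). Of the 19, 17 had a higher step in the low chill genotypes. The high chill median of the list was -0.08, with 3 rising and 1 falling. Of all genes tested, 17.4% rose and 15.3% fell in the high chill genotypes. Several of these genes came from tables of the study, whose peach comparison was itself between low and high chill buds of these samples. The lists were drawn from that study, so their differences between low and high chill, and this ranking, are not independent evidence. For SHT the high chill step was -0.92 (adjusted p = 0.333) and the difference 8.52. Those that rose in the high chill genotypes were LAP3 (3.69) and both AMS-like genes (2.22 and 1.97). LAP3 rose in A318 (4.13) and in A323 (3.26), whereas AMS-like a and b rose in A318 (3.61 and 3.87) and did not pass the test in A323 (0.83, adjusted p = 0.674, and 0.06, adjusted p = 0.979). The difference between A318 and A323 was not tested. Lipid transfer proteins had a higher low chill step in 13 of 21 cases and a lower one in 4. Xylem genes were higher in 8 of 12 and lower in 0, and sugar genes higher in 10 of 16 and lower in 1. Of all genes tested, 17.4% were higher and 15.3% lower. FLA11, an arabinogalactan protein of secondary walls, rose by 2.79 in low chill and fell by 2.18 in high chill buds. On the scale of 30 libraries, its A209 groups overlapped (11.4 to 26.5 and then 12.2 to 82.3 CPM). Its A340 groups were separate (2.87 to 5.3 and then 50.7 to 84.1 CPM). Peroxidase f, by contrast, rose in both low and high chill buds, by 6.83 and 6.16, and its difference of 0.68 did not pass the test (adjusted p = 0.639).

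Among genes that fell, 4 of 6 DAM and 7 of 8 cold protection genes had a lower step in the low chill genotypes. Of all genes tested, 15.3% had a lower one. DAM6 was at a median of 1570 CPM in A318 and 1810 CPM in A323 at 100 chill hours and at 211 and 502 CPM at 600 chill hours, on the scale of 30 libraries, a step of -2.33 and a difference of -1.52 (adjusted p = 0.0111). Every high chill library at 600 chill hours (171 to 588 CPM) was above every low chill library at that time (5.44 to 74.3 CPM). The DAM1 difference of -1.12 (adjusted p = 0.0398) lost its call in 12 of 30 fits that left out 1 library. For DAM5 the high chill step was -2.23, and the difference of -0.63 did not pass the test (adjusted p = 0.356). Its levels were far apart already at 100 chill hours, at 649 to 1020 CPM in high chill and 30.9 to 39.6 CPM in low chill libraries. At 600 chill hours it was at 82 to 138 CPM in A318 and 293 to 301 CPM in A323. CAP160 fell by 1.44 in the high chill genotypes, where the medians were 747 and 1220 CPM at 600 chill hours, with a difference of -3.09. Heat shock genes had a lower low chill step in 10 of 18 cases, against 15.3% of all genes tested.

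Other genes moved in opposite directions. ROXY2 fell in low chill buds and rose in high chill buds, from medians of 5.13 and 4.19 CPM in A318 and A323 to 76.4 and 39.3 CPM (3.43, adjusted p = 1.42e-07), so that the difference was -8.44. AGO4 b had a high chill step of 2.66 and a difference of -4.6. Of 22 cell cycle genes 13 rose and 1 fell in the high chill genotypes, with a median of 1.39, and 9 had a lower step in the low chill ones. Of all genes tested, 17.4% rose and 15.3% fell in the high chill genotypes, and 15.3% had a lower low chill step. Histone H3 b, for instance, rose by 2.21 in high chill buds, with a low chill step of 0.24 (adjusted p = 0.656). KRP7 rose in both, by 2.44 and 2.8. Green tissue genes rose in 5 of 6 cases in both sets of genotypes. Of all genes tested, 25.3% rose in low chill and 17.4% in high chill buds.

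**Figure D5:**
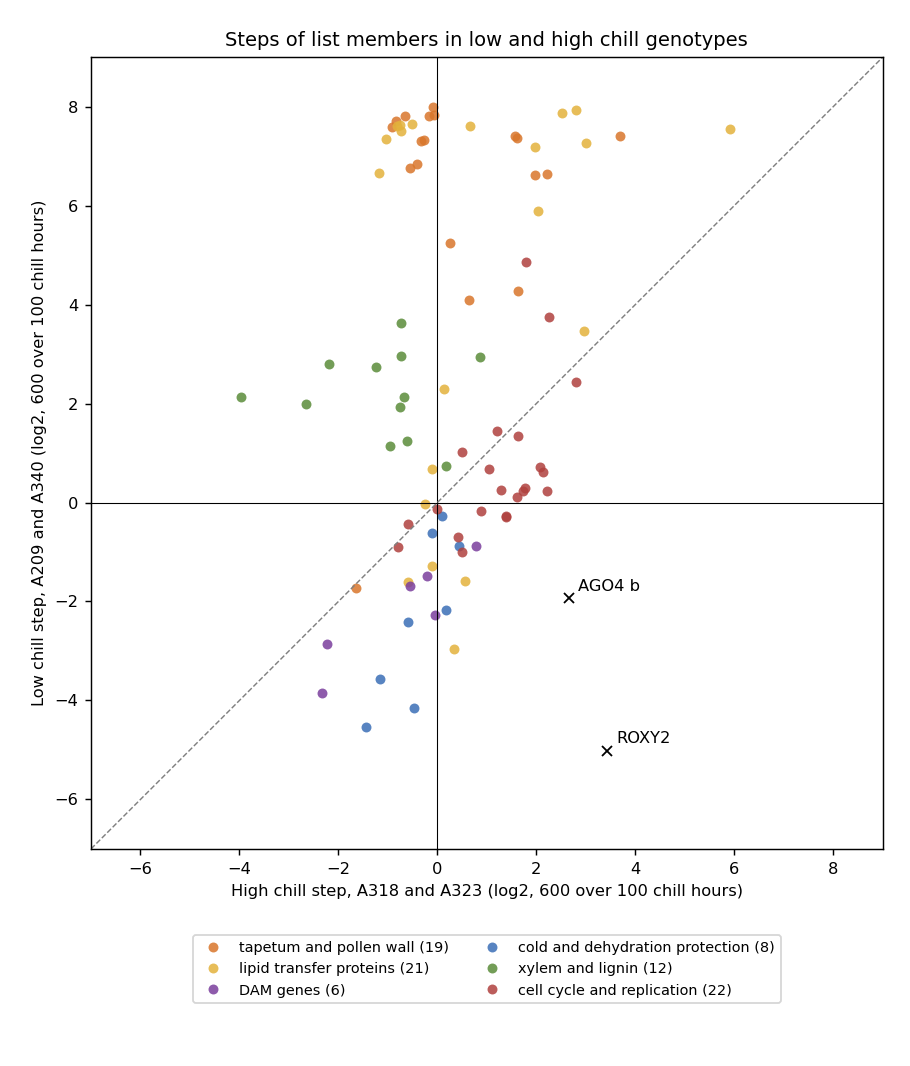
Log2 steps from 100 to 600 chill hours of the members of 6 lists in the fit of 30 libraries, high chill genotypes on the horizontal and low chill genotypes on the vertical axis, with equal steps as a dashed line. By list median, tapetum and lipid transfer genes lie near 0 horizontally (-0.08 and 0.14) and high vertically (7.32 and 7.19). Single members spread more widely: 3 of 19 and 6 of 21 rose in high chill buds, and 1 and 0 fell. Of all genes tested, 17.4% rose and 15.3% fell there. Cell cycle genes lie mostly below the line, and ROXY2 and AGO4 b (crosses) at lower right. The lists were drawn from annotations and text of the study, so their distance from the line is not independent of these data.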

How the data were processed

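The authors deposited 1 table of raw counts per library. Per the study's methods, reads were trimmed with skewer, rRNA reads were removed, and the rest was aligned to the Prunus persica genome v2.0 with STAR (2.5.3a in the submitters' processing notes) and counted over exons with HTSeq, the DAM region being counted on v1.0 gene models. Strand setting was not given in the sources used here. The study reports significant rRNA contamination in most of its peach libraries. In its multivariate test, rRNA share was a significant factor in the profiles, without a significant interaction with genotype or time point. The share of rRNA per library was not a term in the fits used here. The deposited counts were used unchanged in R 4.3.3 with edgeR 4.0.16 (filterByExpr with minimum count 10 and total 15, TMM, glmQLFit, glmQLFTest, Benjamini-Hochberg adjustment over all genes tested). Standard errors (SE) are the log2 fold change divided by the root of its F statistic. Fits were tested on simulated data. Alternatives were DESeq2 1.42.0, other scaling, no filter, glmTreat, a replicate block, all peach libraries, single genotypes and single libraries left out. Members, the 17 lists (277 genes) and tests were chosen with earlier results of these data known. The lists were drawn from the text of the study and its annotations, at hand for 2920 genes. Tables of the study include genes selected by their expression in these samples, so list shares are not independent evidence. Named are list members named in the study, the 4 largest called changes per list, and the 10 largest changes in each direction with separate groups and at least 10 CPM, the first 10 annotated ones likewise, and the 6 largest differences between genotypes and between low and high chill (6 annotated and 6 of any kind). Other members were chosen after their values were seen. No sequences or coordinates were used, since 0 gene IDs matched the reference table.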

Additional observations from a re-analysis of the deposited data

Results flagged for a closer look

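Within groups of 4 libraries, 1 library stood far from the other 3 in 9 of 56 groups tested over 14 items, where chance gives about 1 in 20. At 600 chill hours these were A209 replicate 1 for DAM6 (76.5 CPM against 5.41 to 14.5) and CAP160 (146 CPM against 58.1 to 59.6), A340 replicate 2 for CAP160 (99.2 CPM), A340 replicate 3 for HSP101 (23.3 CPM) and A340 replicate 1 for the tapetum and pollen wall sum (1201 CPM against 5754 to 5922). At 100 chill hours they were A340 replicate 1 for the same sum (83 CPM against 19 to 23.8) and for LAP6 (14 CPM), A340 replicate 2 for COR47 (22216 CPM) and A209 replicate 2 for its total (3007883 counts against 18297696 to 19497771).

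Between the genotypes, the step of A209 minus that of A340 differed for HSP101 (1.72), LAC4 b (-3.16) and the unannotated genes Prupe.2G160400 (4.68), Prupe.5G107500 (4.54), Prupe.1G586200 (4.35), Prupe.3G012600 (4.07), Prupe.6G040700 (3.78) and Prupe.3G012300 (3.61), by the interaction contrast in edgeR. The call was lost in 7 of 16 fits without 1 library for Prupe.3G012600 and in 13 of 16 for Prupe.3G012300. With the replicate block HSP101 (adjusted p = 0.0553) and all of these unannotated genes but Prupe.6G040700 lost it.

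The low chill step minus the high chill step, tested in edgeR, exceeded the threshold for ACOS5 (8.54), CYP98A3 (9.04), a glycosyl hydrolase family 81 gene (Prupe.3G242100, 9.42), KCS21, a fatty acid elongase (Prupe.1G133800, 8.74), a cupin (Prupe.4G094800, 8.58) and an aspartyl protease (Prupe.1G141300, 8.54). Prupe.3G242100 lost its call with A323 alone as high chill (8.27) and in 2 of 30 fits without 1 library, A318 replicate 2 (8.8) or A323 replicate 4 (8.86) at 100 chill hours. The genes above were the 6 annotated ones with the largest differences among those with at least 10 CPM. Other genes were flagged here only when their low and high chill steps were both called and opposite in sign, whatever the size. Among these, the xylem and wall genes were LAC4 b (6.11), FLA11 (4.99), CESA8 (3.97), PAL1 (2.68), 4CL2 (2.11) and pectin acetylesterase b (2.4). STP13 a (2.4), GASA a (2.5) and ARR1 (1.44) were also higher in the low chill step. Lower were ROXY2 (-8.44), AGO4 b (-4.6), HSP21 (-3.37), MSD1 b (-2.26), PIN6 (-1.76), CAL (-1.51), the checkpoint gene Prupe.6G321300 (-1.5), HDT3 (-1.42) and the small RNA gene Prupe.1G533300 (-1.22).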

How the results depend on the processing

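For named genes, the direction of the low chill step mostly held under alternatives. Of 3067 checks, 3005 kept direction and call, 34 lost the call, 19 gained it and 9 reversed, all 9 in genes that had not passed the test. A further 3 checks were of a gene not tested there. Another 2, DAM5 and DAM6 in DESeq2's Wald test, had no adjusted p. Many named genes were chosen for large called steps in these data, and the alternatives reuse these libraries, so this stability is partly built in. Of the lost calls, 15 were against a 2-fold change, 10 in A209 alone, 2 in A340 alone and 7, all of AMY3, without 1 library. CRF2 (Prupe.5G114100) was at 0.27 in A209 alone. ATXR7 (Prupe.2G042400) was at 0.05 in A209 alone and between -0.2 and 0.02 without 1 library. Prupe.1G177800 was at 0.62 in A340 alone and between -0.15 and 0.15 without 1 library (above 0 at 0.02, 0.09, 0.03, 0.15 and 0.1). Against a 2-fold change (glmTreat), 1871 genes were higher and 857 lower. Leaving out 1 library gave 3021 to 3182 higher and 1682 to 1916 lower DEGs for the low chill step. The genotype difference was unstable: DESeq2's Wald test called 437 and 328, a fit of all peach libraries 171 and 80, and leaving out 1 library gave 20 to 521 and 14 to 380, and the cause was not tested. The low minus high chill difference had 3287 to 3820 higher and 2811 to 3504 lower genes without 1 library, and 1861 lower with A318 alone as high chill. Replicate numbers did not pair the libraries (correlations of same-numbered libraries -0.2 to 0.08, own number best in 1 of 8). The replicate block gave 2914 and 1692 DEGs for the step, 7 and 8 for the genotype difference and 2768 and 2439 for low minus high. Leaving out libraries under 2423035.25 counts, a set fraction of the peach median, gave no value, since 0 of 30 were. Depth limits genes near the floor: QRT1 had medians of 0.15 and 3.12 CPM.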

Other observations

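Some genes with no annotation at hand had declines as steep as any annotated gene. Prupe.5G090700 and its neighbour in number Prupe.5G090600 had medians of 16.3 and 22.6 CPM at 100 chill hours and 0.108 and 0.264 CPM at 600 chill hours (log2 steps -6.47 and -5.98). Prupe.1G023300 fell by 6.03 in the low chill and by 6.24 in the high chill genotypes, with a difference of 0.13 that did not pass the test (edgeR adjusted p = 0.884). Prupe.6G123600, in contrast, was too low to be tested in the low chill libraries (at most 0.386 CPM) and rose by 8.26 in the high chill genotypes. Copies of a family also parted: of the lipid transfer proteins, Prupe.2G139000 fell by 2.95 and Prupe.2G008300 rose by 7.28, and of the auxin importers, LAX2 b fell by 0.87 where LAX2 a rose by 5.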
